A study of Mus musculus with 9 samples.

Results

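Gk, Pcx and Aldoa encode 3 enzymes through which carbon other than glycogen can reach glucose in the liver. They were taken as the rows of the deposited expression table with these gene symbols, 3 of the 5608 genes listed, and all 3 passed the filter on low values that left 4665 genes for testing. The table covers 9 liver samples of wild-type C57BL/6J mice, sequenced as strand-specific mRNA libraries from 1 acute round of diet. FED mice (replicates 1, 2 and 3) ate standard diet without restriction. IF mice (intermittent fasting, replicates 1, 2 and 3) had no food for 24 h on day 1 and again on day 4, with free access to food in between. FMD mice (fasting-mimicking diet, replicates 1, 2 and 4) received a low-calorie diet on days 2 to 4, at 50% of average calories on its first day and 10% on the later days. All mice were sacrificed on day 5, and their age was not given in the sources used here. The groups therefore differ in food composition and in the timing of restriction as well as in its depth.

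In a fasted liver, glucose is built from lactate, amino acids and glycerol. Gk (glycerol kinase) uses ATP to turn glycerol released from fat into glycerol 3-phosphate, which is oxidised to dihydroxyacetone phosphate and so enters the pathway at the triose phosphates. Pcx (pyruvate carboxylase) is a mitochondrial enzyme with a biotin cofactor that turns pyruvate into oxaloacetate, the first step by which pyruvate and lactate carbon leaves for glucose. Aldoa (aldolase A) joins 2 triose phosphates to fructose 1,6-bisphosphate or splits it in the direction of glycolysis. Aldolase A is best known from muscle and from cells that use glucose. Gpd1, Gk2, Pck1, Pck2, G6pc and Fbp1, close partners of the 3 enzymes, were not analysed here.

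The stretches of DNA before the transcription starts of the 3 genes are shown because the genes moved differently between the diets. Each is the 250 bases before a RefSeq start on GRCm38.p6, 5′ to 3′ on the strand of the gene, in lower case except for the letters ACGTG (the core recognised by hypoxia factors and a part of the E-box CACGTG) and AGGTCA (the nuclear receptor half-site), which stand in capitals on either strand. The Gk window is chrX:85776820-85777069 on the minus strand, the Pcx window chr19:4510222-4510471 on the plus strand, and the Aldoa window chr7:126799179-126799428 on the minus strand.
Gk: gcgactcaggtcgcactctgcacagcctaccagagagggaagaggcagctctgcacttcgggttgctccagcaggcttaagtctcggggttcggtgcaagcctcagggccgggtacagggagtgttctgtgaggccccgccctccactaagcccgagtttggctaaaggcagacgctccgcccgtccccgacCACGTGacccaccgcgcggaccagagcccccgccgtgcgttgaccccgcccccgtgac
Pcx: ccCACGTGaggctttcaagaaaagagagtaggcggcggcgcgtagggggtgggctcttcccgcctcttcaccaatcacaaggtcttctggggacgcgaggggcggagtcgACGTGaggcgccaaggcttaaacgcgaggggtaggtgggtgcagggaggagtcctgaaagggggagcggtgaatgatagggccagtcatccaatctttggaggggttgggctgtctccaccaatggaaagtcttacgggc
Aldoa: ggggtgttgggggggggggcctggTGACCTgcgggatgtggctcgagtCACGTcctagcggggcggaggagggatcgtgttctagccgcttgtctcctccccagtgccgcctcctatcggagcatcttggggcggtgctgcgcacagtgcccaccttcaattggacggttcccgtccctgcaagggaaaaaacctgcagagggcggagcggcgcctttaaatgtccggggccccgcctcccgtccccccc
The Gk and Pcx windows overlapped no gene of the GENCODE vM21 annotation, while the Aldoa window lay within the annotated extent of both Aldoa and Fam57b and overlapped an exon of other Aldoa transcripts. Gk held 1 E-box, which began 58 bases before the start, and Pcx held 1, which began 248 bases before it, while 6.04% of all windows and 8.39% of those of listed genes held one. ACGTG, which every CACGTG also contains, was present in the windows of all 3 genes, and in 16.7% of the 32536 distinct windows of this length (22.4% of those of listed genes). AGGTCA was found in the Aldoa window alone of these 3, on the opposite strand, and in 14.0% of all windows (10.6% of those of listed genes). The GC box GGGCGG was found in all 3 windows, in 33.0% of all windows and in 59.3% of those of listed genes, and the box CCAAT was found in the Pcx and Aldoa windows and in 33.8% of all (35.3% of those of listed genes). None of the 3 held the cAMP response element TGACGTCA or its part TGACG, the forkhead site GTAAACA, the box TATAAA, the heat shock pair GAANNTTC or 2 copies of AGGTCA spaced by 1 base. These motifs were searched on both strands; the shares of all windows holding them were 1.56%, 17.9%, 3.17%, 12.3%, 6.72% and 0.0338%. RefSeq gave a second start inside Pcx, in an intron, and 2 further starts of Aldoa, 1 of whose windows overlapped the one shown. That overlapping window held the same kinds of motif as the Aldoa window shown. The window of the second Pcx start and the Aldoa window without overlap held none of the motifs searched. The motifs named above for Pcx and Aldoa therefore depend on the start chosen. Which start these livers used was not tested.

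Values are in TPM, the level of a transcript scaled for its length and for the size of the library. The listed genes held 26.3 to 29.3% of all TPM in the FED libraries, 32.9 to 34.9% in IF and 34.9 to 43.0% in FMD, and the highest share was that of FMD replicate 1. How the listed genes were chosen is not stated in the sources used here. Every share of all genes below, and the scaling, refer to the 4665 of them that were tested and not to the whole transcriptome. Over the 4665 genes tested, the median log2 fold change was 0.24 in IF against FED, 0.48 in FMD against FED and 0.24 in FMD against IF. Each result is therefore given on the TPM as deposited and again after every library was divided by the median of its ratios to an average library, which moved these medians to 0.00, 0.01 and 0.00. A gene was called changed at an adjusted p under 0.05 and a fold change over 1.5 in limma. FMD replicate 1 stood apart in other genes as well: Cd68, a macrophage gene and the 1 listed of 15 markers of Kupffer cells and leukocytes, was at 64.0 TPM there against 12.2 and 5.75 in FMD replicates 2 and 4, 3.14 to 5.99 in IF and 6.35 to 10.4 in FED. Glul, a gene of hepatocytes around the central vein, was at 161 TPM in that library against 441 to 644 in all others. None of the 13 hepatocyte markers, 10 endothelial markers and 6 erythroid markers was among the listed genes, so the tissue label could be checked only in part, by the hepatocyte genes Ass1, Cyp2f2 and Gls2 (3637 to 6316 TPM summed over these 3) and Glul. Of these, Cyp2f2 averaged 1568, 994 and 952 TPM in FED, IF and FMD and was called lower in both diets on both scales (scaled log2 differences -0.94 and -1.29), Gls2 was called lower in FMD after scaling (-0.75), and Ass1 and Glul were called in no comparison. Summed TPM of 3 listed stellate cell genes (Col1a1, Dcn and Pdgfrb) ran from 66.6 to 93.8 in FED livers, 122 to 160 in IF livers and 107 to 217 in FMD livers. Dcn made up nearly all of this sum, at means of 77.5, 141 and 150 TPM in FED, IF and FMD as deposited. It was called higher in both diets as deposited (log2 differences 0.86 and 0.90) and in neither after scaling (0.58 and 0.35). Col1a1 (0.27 to 1.63 TPM over the 9 livers) and Pdgfrb (0.95 to 2.40) were called in no comparison. The 1 listed cholangiocyte marker, Krt19, was at 0.76 to 4.07 TPM. The part of these cell types in the results was not tested, and in whole liver a change in the RNA per cell and a change in the number of cells cannot be told apart.

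Gk rose in both diets by similar amounts. Its level was 19.1, 24.2 and 24.6 TPM in FED replicates 1, 2 and 3, 73.0, 70.3 and 69.5 in IF, and 94.0, 93.7 and 70.5 in FMD replicates 1, 2 and 4. Every fasted or FMD liver stood above every FED liver, the 3 IF livers lay within a few TPM of each other, and the lowest FMD liver fell inside the IF range. Group means were 22.6 ± 3.09 TPM in FED livers, 70.9 ± 1.80 in IF livers and 86.1 ± 13.5 in FMD livers (SD, n = 3 each), a ratio to FED of 3.14 in IF and 3.81 in FMD. In relation to the other genes of the same library, Gk moved from the 73.7th to 78.3rd percentile in FED to the 87.8th to 89.7th in IF and FMD. On the log2(TPM + 1) scale the difference from FED was 1.62 ± 0.14 (SE) for IF (limma, adjusted p = 0.000131) and 1.88 ± 0.14 for FMD (adjusted p = 1.69e-05), and these values lay above those of 99.4% and 98.8% of all genes tested. Among the 4665 genes tested, 10.3% were called higher in IF and 35.5% in FMD.

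After scaling, the Gk difference from FED was 1.35 ± 0.12 for IF (adjusted p = 0.000306) and 1.34 ± 0.12 for FMD (adjusted p = 0.000109). On this scale 3.69% of all genes were called higher in IF and 5.49% in FMD. Scaled Gk levels were 23.4, 29.5 and 29.1 TPM in FED, 70.9, 68.9 and 72.2 in IF, and 65.8, 82.1 and 64.6 in FMD. The IF livers therefore lay between the FMD livers, and neither diet stood above the other. The direct comparison of FMD with IF gave a log2 difference of 0.26 as deposited (95% interval -0.05 to 0.58, adjusted p = 0.199) and -0.01 after scaling (-0.28 to 0.27, adjusted p = 0.98), so that no difference in Gk between the diets was detected, within those intervals. Of the other glycerol kinase genes, Gk5 was listed at 0.03 to 0.12 TPM and did not pass the filter.

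Pcx rose in IF in all 3 livers, and in FMD with a wide spread. Its level was 142, 124 and 133 TPM in FED, 307, 321 and 277 in IF, and 230, 401 and 253 in FMD replicates 1, 2 and 4. FMD replicate 2 held the highest level of the 9 livers and the other FMD livers lay below every IF liver, yet all stood above FED. Means were 133 ± 8.72 TPM in FED livers, 302 ± 22.5 in IF livers and 295 ± 92.9 in FMD livers (SD, n = 3 each), a ratio to FED of 2.27 in IF and 2.22 in FMD. The log2 difference from FED was 1.17 ± 0.19 (SE) for IF (limma, adjusted p = 0.00197) and 1.10 ± 0.19 for FMD (adjusted p = 0.00104).

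The FMD call on Pcx depended on the scaling. It was lost with the median-ratio scaling used here and stayed past the threshold with quantile normalization (log2 difference 0.62, adjusted p = 0.0478), scaling to Tbp and Gtf2b (0.71, adjusted p = 0.0451) and scaling to equal sums of the listed genes (0.66, adjusted p = 0.0422). With median-ratio scaling the log2 difference from FED became 0.90 ± 0.22 for IF (adjusted p = 0.0267) and 0.55 ± 0.22 for FMD (adjusted p = 0.107). Scaled levels were 174, 151 and 158 TPM in FED, 298, 315 and 288 in IF, and 161, 351 and 231 in FMD. FMD replicate 1 now lay among the FED livers, while the IF livers still stood clear of them. Without FMD replicate 1, the scaled difference in FMD was 0.82 (adjusted p = 0.0058), past the threshold, and without FMD replicate 2 it was 0.26 (adjusted p = 0.245). The scaled IF call was lost without any 1 of the FED or IF libraries (adjusted p 0.0674 to 0.0972), with log2 differences of 0.85 to 0.95. FMD and IF did not differ detectably in Pcx as deposited (log2 difference -0.07, 95% interval -0.48 to 0.33, adjusted p = 0.773) or after scaling (-0.35, -0.85 to 0.15, adjusted p = 0.375). Scaled and without FMD replicate 2, the highest liver, Pcx was 0.63 lower in FMD than in IF on the log2 scale (adjusted p = 0.0444).

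Aldoa rose in FMD and was not called in IF. Its level was 80.3, 81.5 and 79.1 TPM in FED, 99.0, 103 and 93.4 in IF, and 321, 260 and 162 in FMD replicates 1, 2 and 4. The FED livers were almost equal, the IF livers lay slightly above them, and every FMD liver stood above every other liver. Means were 80.3 ± 1.25 TPM in FED livers, 98.4 ± 4.68 in IF livers and 248 ± 80.4 in FMD livers (SD, n = 3 each), a ratio to FED of 1.22 in IF and 3.08 in FMD. Within the library, Aldoa stood at the 90.4th to 90.9th percentile of listed genes in FED and IF and at the 93.3rd to 95.5th in FMD. The log2 difference from FED was 0.29 ± 0.20 (SE) for IF (limma, adjusted p = 0.312), near the median of all genes, and 1.56 ± 0.20 for FMD (adjusted p = 0.000297). The SE for IF includes the wide spread of the FMD livers. With FED and IF fitted alone in limma, the same difference of 0.29 had an adjusted p of 0.00723, still under the fold required. FMD was also above IF, by 1.27 ± 0.20 (95% interval 0.82 to 1.72, adjusted p = 0.0129), where 4.67% of all genes were called higher and 98.8% had a lower log2 fold change.

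After scaling, the FED and IF livers overlapped in Aldoa, at 98.5, 99.5 and 93.7 TPM in FED and 96.2, 101 and 97.1 in IF, while the FMD livers held 225, 228 and 148. The scaled log2 difference from FED was 0.01 ± 0.15 in IF (95% interval -0.33 to 0.35, adjusted p = 0.972) and 1.01 ± 0.15 for FMD (adjusted p = 0.00166). FMD exceeded IF by 0.997 ± 0.15 (adjusted p = 0.0143), where 1.11% of all genes were called higher. Without FMD replicate 1, the library with the highest Cd68 and, as deposited, the highest Aldoa, Aldoa was still higher in FMD than in FED by 1.34 as deposited and 0.91 scaled, and higher than in IF by 1.05 and 0.90, and all 4 passed the threshold (adjusted p 0.00026, 0.00301, 0.00898 and 0.0204). The FMD against IF call was lost without any 1 of the IF libraries (adjusted p 0.0546 to 0.0702), with log2 differences of 0.98 to 1.30. Of the 50-base stretches of the longest Aldoa transcript of GENCODE vM21, 13.5% also occurred in transcripts of other genes, among them the retrogene Aldoart1, so a part of the Aldoa reads could have been assigned either way. The same share was 0.63% for Gk, shared with Gk2, and 0% for Pcx.

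**Figure D1:**
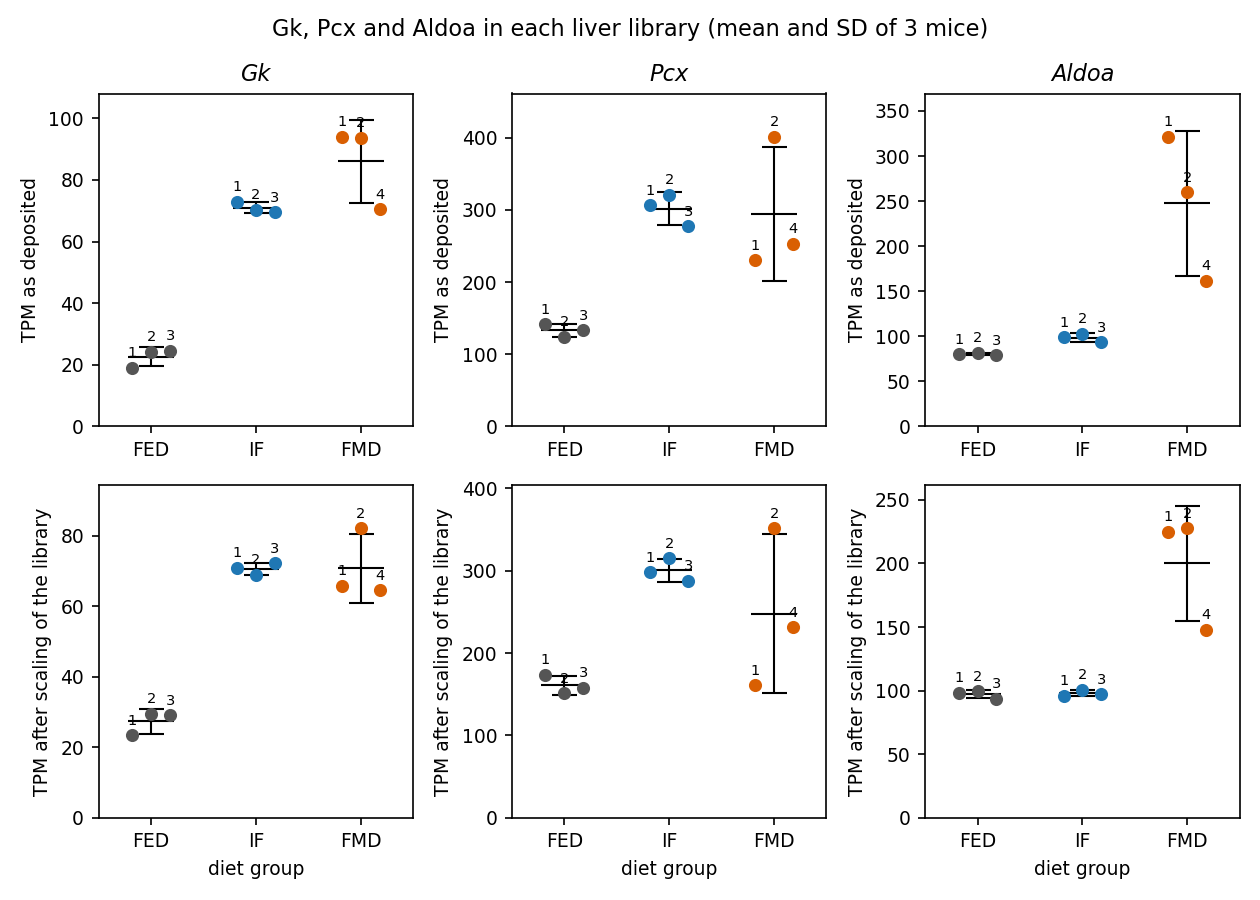
Level of Gk, Pcx and Aldoa in each liver library, in TPM as deposited (upper row) and after division by the scaling factor of the library (lower row), by diet group. Points are libraries with their replicate number and bars the mean ± SD of 3 mice; Gk is raised in both diets, Pcx spreads from 230 to 401 TPM in FMD, and the FMD livers alone are high in Aldoa.

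As deposited, the groups did not overlap for any of the 3 genes in either diet against FED, which held in the upward direction for 53.8% of all genes in IF and 68.0% in FMD. After scaling, Gk kept this separation in both diets, Pcx in IF only and Aldoa in FMD only, against 23.2% of all genes in IF and 18.5% in FMD. Every FMD liver lay above every IF liver in Aldoa only of the 3, on both scales, as did 33.6% of all genes as deposited and 12.7% scaled.

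**Figure D2:**
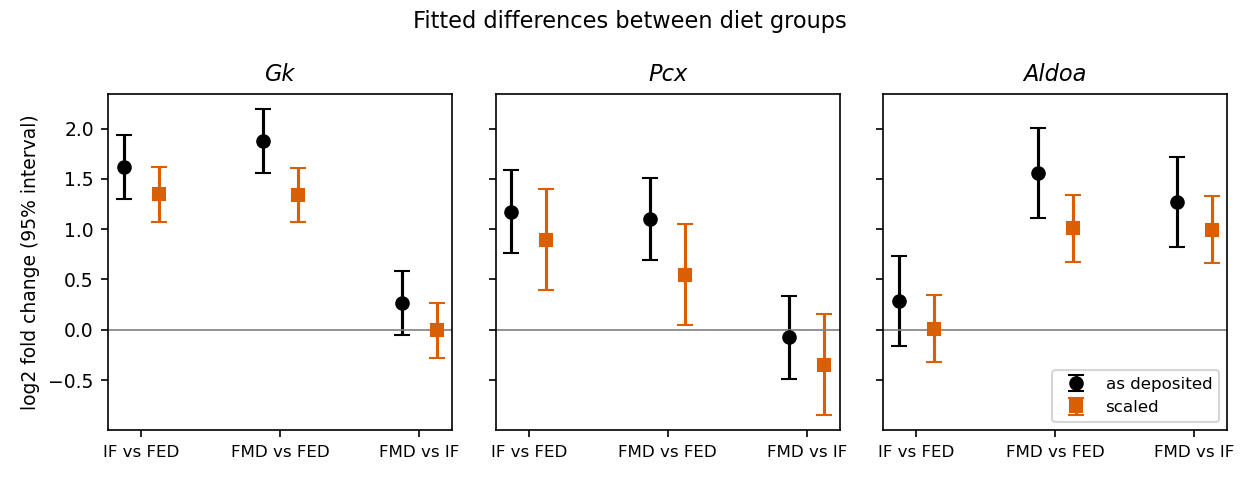
Fitted log2 fold change of Gk, Pcx and Aldoa for the 3 comparisons of diet groups, with 95% intervals from limma, as deposited (circles) and after scaling (squares). The interval of FMD against IF spans 0 for Gk and Pcx and lies above 0 for Aldoa on both scales.

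The genes around each enzyme were read from lists written from general knowledge. Of 21 genes of glycerol handling, 6 besides Gk were tested. As deposited, 3 of the 6 were called higher in IF and 4 in FMD, with none lower (medians 0.48 and 0.80), beside 10.3% and 35.5% of all genes higher and 1.59% lower in each diet. After scaling, 2 were higher in both diets, beside 3.69% and 5.49% of all genes, and 1 was lower in IF, where 3.45% of all genes were lower. Pnpla2, the adipose triglyceride lipase that takes the first fatty acid from stored fat, was at 31.8 ± 1.38 TPM in FED livers, 79.2 ± 10.1 in IF livers and 149 ± 54.0 in FMD livers, and its scaled log2 difference from FED was 1.01 for IF (adjusted p = 0.0142) and 1.58 for FMD (adjusted p = 0.00114). Agpat3, an acyltransferase that adds fatty acids to the glycerol backbone, rose by 0.73 and 0.85 on the same scale. Abhd5, the activator protein of that lipase, was lower in IF after scaling by 0.60 (adjusted p = 0.00638), whereas its levels as deposited were 14.4, 11.1 and 15.0 TPM in FED, IF and FMD with no call. In FMD its scaled log2 difference from FED was -0.48 (limma, adjusted p = 0.0118), under the fold required, and FMD and IF did not differ detectably. Lipe, the hormone-sensitive lipase, was called higher in both diets as deposited and in neither after scaling. Agpat1, a second acyltransferase, was called higher in FMD as deposited (3.80 to 7.68 TPM) and not after scaling. As deposited, Pnpla2 and Agpat1 were also called higher in FMD than in IF, and neither was after scaling or without FMD replicate 1.

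Of 41 genes of pyruvate and oxaloacetate, 14 besides Pcx were tested. As deposited, 6 were called higher in IF and 8 in FMD, with none lower (medians 0.58 and 0.69), where 10.3% and 35.5% of all genes were called higher. After scaling the counts were 3 and 2 higher (3.69% and 5.49% of all genes), with 1 lower in FMD, where 5.64% of all genes were lower. That gene was Slc25a1, the mitochondrial citrate carrier, named after its values were seen. Without FMD replicate 1, Slc16a1 and Mpc2 also passed in FMD after scaling, which made 4 higher, and Slc25a1 stayed lower. Over all genes that fit called 513 in either direction in FMD against FED, and the scaled fit of all livers called 519. None of the 14 was called between FMD and IF on either scale. Of all genes, 4.67% were called higher and 0.472% lower there as deposited, and 1.11% in each direction scaled. Gpt2, which makes pyruvate from alanine, was at 83.1 ± 10.1 TPM in FED livers, 257 ± 51.8 in IF livers and 370 ± 190 in FMD livers and stayed called in both diets after scaling (log2 differences 1.32 and 1.42, adjusted p = 0.0270 and 0.0148). Slc16a1, a carrier of lactate and pyruvate across the cell membrane, was at 16.7, 34.9 and 34.6 TPM in FED, IF and FMD. It was called in both diets as deposited and in IF after scaling. Ldha, a lactate dehydrogenase subunit, was at 596 ± 75.7 TPM in FED livers, 1080 ± 37.3 in IF livers and 1505 ± 400 in FMD livers. It was called higher in both diets as deposited, and its scaled log2 difference was 0.58 for IF (adjusted p = 0.0151), just under the fold required, and 0.76 for FMD (adjusted p = 0.00306). Mpc2, a subunit of the carrier that brings pyruvate into mitochondria, was higher in both diets as deposited (log2 differences 0.69 and 0.98) and passed no threshold after scaling (0.41 and 0.43).

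Pdha1, a subunit of the pyruvate dehydrogenase that competes with pyruvate carboxylase for pyruvate, was the partner fixed for Pcx. The ratio of Pcx to Pdha1 TPM within a library does not depend on scaling. It was 3.07, 2.35 and 2.71 in FED, 4.32, 4.76 and 4.44 in IF, and 2.80, 4.70 and 3.50 in FMD. The IF livers stood above every FED liver, while FMD replicate 1 lay within the FED range. Means were 2.71 ± 0.36, 4.50 ± 0.23 and 3.67 ± 0.96 (SD, n = 3 each), and an exact permutation test over the 280 divisions of the 9 livers into 3 groups gave p = 0.0536 (the smallest p it allows is 0.00357). For a pair of groups the smallest two-sided exact p is 0.1, which was the value of IF against FED. FMD against FED gave 0.2 and FMD against IF 0.3, also by exact permutation.

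Of 34 genes from the triose phosphates to glucose, 13 besides Aldoa were tested. As deposited, 2 were called higher in IF and 7 in FMD, with none lower and none between FMD and IF (medians 0.26 and 0.73 against FED), beside 10.3% and 35.5% of all genes higher against FED, so that the share in IF was near that of all genes. After scaling, 1 was called higher in IF and 2 in FMD, beside 3.69% and 5.49% of all genes. Without FMD replicate 1, Pfkfb3, whose enzyme makes the glycolytic activator fructose 2,6-bisphosphate, was called higher in FMD than in IF on both scales (means with all livers 4.42 ± 2.97 and 1.33 ± 0.17 TPM), and it was also named after its values were seen. Slc37a4, which carries glucose 6-phosphate into the endoplasmic reticulum for its last step to glucose, was at 87.7 ± 21.3 TPM in FED livers, 159 ± 30.4 in IF livers and 249 ± 51.2 in FMD livers, with a scaled log2 difference in FMD of 0.95 (adjusted p = 0.0130). Slc2a1, a glucose carrier of the cell membrane, rose in both diets on both scales, from 4.82 ± 0.71 TPM in FED to 10.8 ± 1.54 and 13.2 ± 4.93. Minpp1, a phosphatase that can act on 2,3-bisphosphoglycerate, and Gpi1, which interconverts glucose 6-phosphate and fructose 6-phosphate, were called higher in FMD as deposited only.

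The steps next to aldolase had smaller log2 differences in FMD than Aldoa. Tpi1, Gapdh, Pgk1, Pgam1 and Eno1 encode reversible enzymes that work from the triose phosphates downward and are used by glycolysis and by glucose synthesis. Their log2 differences in FMD against FED were 0.42 to 0.84 as deposited, with Eno1 and Tpi1 called, and -0.13 to 0.28 after scaling, with none called. In IF against FED the scaled values were -0.25 to 0.13. The ratio of Aldoa to the geometric mean of these 5 genes within a library was 0.198, 0.235 and 0.207 in FED, 0.217, 0.219 and 0.234 in IF, and 0.469, 0.426 and 0.371 in FMD. All 3 FMD livers stood apart from the other 6, whose ranges overlapped. The mean of this ratio was 0.213 ± 0.020 in FED livers, 0.224 ± 0.009 in IF livers and 0.422 ± 0.049 in FMD livers (SD, n = 3 each). It was chosen after the values were seen and was not tested.

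**Figure D3:**
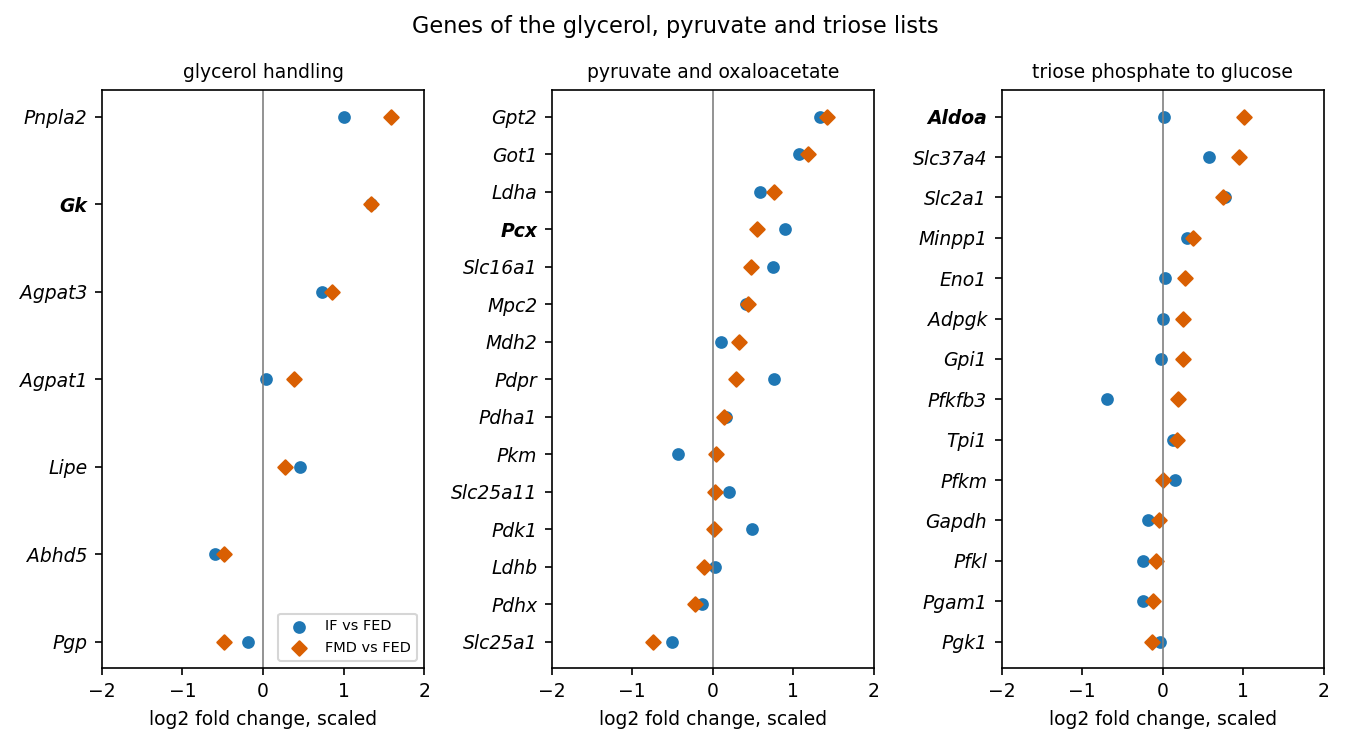
Scaled log2 fold change against FED of each gene tested in the lists of glycerol handling, pyruvate and oxaloacetate, and triose phosphate to glucose, in IF (circles) and FMD (diamonds), with the 3 genes of the report in bold. Gk and Gpt2 lie far to the right in both diets, whereas Aldoa is at 0.01 in IF and 1.01 in FMD.

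The 3 genes also shifted against each other within a library, as ratios that scaling cannot change. The ratio of Aldoa to Pcx was 0.568, 0.657 and 0.592 in FED, 0.323, 0.320 and 0.337 in IF, and 1.40, 0.648 and 0.640 in FMD. It was therefore lowest in every IF liver, and in FMD it was high in replicate 1 and within the FED range in the other two. The ratio of Aldoa to Gk averaged 3.60 ± 0.54 in FED livers, 1.39 ± 0.06 in IF livers and 2.83 ± 0.56 in FMD livers. The ratio of Gk to Pcx averaged 0.171 ± 0.032, 0.236 ± 0.016 and 0.307 ± 0.091. These 3 ratios were also chosen with the values known and are descriptions.

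**Figure D4:**
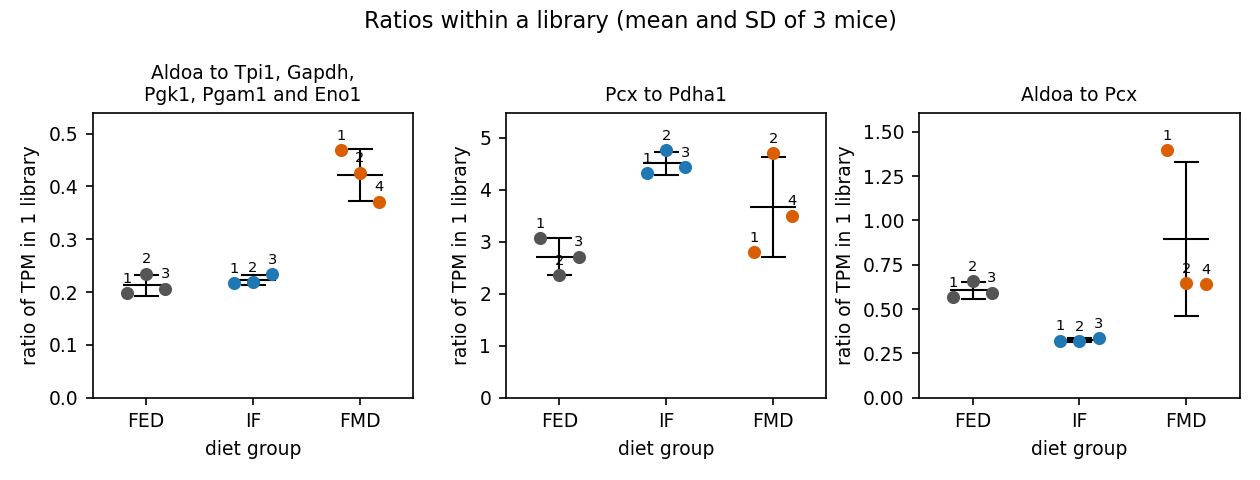
Ratios of TPM within 1 library by diet group: Aldoa to the geometric mean of Tpi1, Gapdh, Pgk1, Pgam1 and Eno1, Pcx to Pdha1, and Aldoa to Pcx. Points are libraries with their replicate number and bars the mean ± SD of 3 mice; the first ratio is at 0.371 or more in FMD and at 0.235 or less elsewhere.

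Profiles over the 9 livers set the 3 genes beside different genes. Likeness was measured as the root mean square difference of log2(TPM + 1), each profile centred on its own mean, so that a smaller number means a closer match. Nearest to Gk were Ech1 (0.12), an enzyme of fatty acid oxidation, Aifm2 (0.13), an oxidoreductase that protects lipids from peroxidation, and Acadl (0.15), the long-chain acyl-CoA dehydrogenase. Ech1 was at 253 ± 19.1 TPM in FED livers, 684 ± 35.7 in IF livers and 858 ± 116 in FMD livers. Nearest to Pcx were Miga2 (0.14), a protein of the mitochondrial surface, and Cpox (0.14), an enzyme of haem synthesis. Cpox was at 51.9 ± 0.90 TPM in FED livers, 124 ± 19.5 in IF livers and 113 ± 25.7 in FMD livers. Nearest to Aldoa were AA986860, Hspa8, the constitutive cytosolic heat shock chaperone, and Tacc2 (0.17 each), and Hspa8 was at 593 ± 66.8 TPM in FED livers, 880 ± 51.7 in IF livers and 1826 ± 579 in FMD livers. AA986860 was at 0.34, 0.91 and 4.36 TPM in FED, IF and FMD, and passed the filter on low values only through FMD, the group in which Aldoa was high. After scaling, the first 2 genes for Gk and for Pcx stayed the same, Tox, which was at 0.56 TPM in FED livers and passed the filter through IF and FMD, replaced Acadl, and Nop2 replaced AA986860. Among all genes tested, Pcx was the 108th nearest to Gk and Aldoa the 897th as deposited, and the 119th and 1138th after scaling.

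Of 40 regulators of glucose synthesis, 17 were tested. As deposited, 2 were called higher and 1 lower in IF, and 5 higher and 1 lower in FMD (medians 0.20 and 0.42). Among all genes 10.3% and 35.5% were called higher, so the shares of the regulators called higher were near or below the background. After scaling, 1 was lower in each diet and 1 higher in FMD, beside 3.45% and 5.64% of all genes lower and 5.49% higher in FMD. The higher gene was Cebpb, a transcription factor of the hepatic fasting response, at 67.1 ± 8.98 TPM in FED livers, 90.9 ± 4.59 in IF livers and 201 ± 19.3 in FMD livers. Like Aldoa, it was called higher in FMD than in IF, by 1.13 as deposited (adjusted p = 0.00195) and 0.86 scaled (adjusted p = 0.0296). The lower gene was Srebf1, a driver of fatty acid synthesis, at 46.3 ± 19.1, 22.3 ± 2.95 and 17.5 ± 6.62 TPM, which was named after its values were seen. Crtc2, the coactivator through which glucagon signals reach CREB, was at 8.85 ± 0.97, 16.5 ± 0.93 and 15.6 ± 0.96 TPM and was called in both diets as deposited, and in neither after scaling (log2 differences 0.57 and 0.25). Insr (in IF too), Irs2 and Sirt1, the insulin receptor, an insulin signalling adaptor and a deacetylase, were called higher in FMD as deposited and not after scaling.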

How the data were processed

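Liver RNA of 9 mice (3 each of FED, IF and FMD, grouped by sample title) was measured by RNA-seq. The authors deposited 1 table of TPM per library, for 5608 genes, which is a part of each library; depth is unknown and no counting interval is given. Per the labels the submitters' processing notes name mm39 and DESeq2 with no role stated; the aligner and annotation are not given in the sources used here. Genes with a mean of at least 1 TPM (4665) were fitted as log2(TPM + 1) with limma 3.58.1 (R 4.3.3; lmFit, eBayes with trend) in 1 fit of all 9 libraries, so fold changes of low genes are understated, with Benjamini-Hochberg adjustment over all genes. On data simulated for FMD against FED, with 200 of 4665 genes raised or lowered by 1.5 on the log2 scale, 96.3% were recovered and 2.92% of calls were false. Each simulated gene had the same spread in all groups, and no shift of a whole library was simulated. In the real comparison 35.5% of genes were called higher and 1.59% lower, so these rates check the code and do not describe the real calls. The scaled values divide each library by its median ratio to the geometric mean library. Ratios of 2 genes were taken on log2 and tested by an exact, two-sided permutation test. All P-values measure the spread between mice, with 3 mice a group. Those of the main limma fit use 1 spread per gene shared by the 3 groups, so IF against FED also carries the FMD spread.

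The members and lists were chosen with earlier results of these data known. Named genes were the 3 members, the 3 genes with the nearest profile to each, up to 5 genes per list with the smallest adjusted p, the ratio partners and the reference genes Tbp and Gtf2b; genes outside this rule are said to be so or are counted in a list. Of the fixed ratios, only that of Pcx to Pdha1 was run, and a few genes that these rules would name are not reported here. Promoter windows are from RefSeq (GRCm38.p6) and were used for sequence only; all 3 members matched by symbol. Deviations from the group mean correlated at 0.003 to 0.177 over the 7 pairs of same-numbered livers of different groups, all positive. For differently numbered livers the correlations ran from -0.202 to 0.211. Whether the replicate number marks a pairing was not tested. Alternatives tried were other pseudocounts, filters, scalings, fits and thresholds, and leaving out each library.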

Additional observations from a re-analysis of the deposited data

Results flagged for a closer look

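The change of Aldoa differed between the diets: FMD livers were above IF livers by 1.27 on the log2(TPM + 1) scale (limma, adjusted p = 0.0129) and by 0.997 after scaling (adjusted p = 0.0143), in 3 of 3 FMD livers against 3 of 3 IF livers on both scales. Such a separation was also seen in 33.6% of all genes as deposited and 12.7% scaled. The Aldoa call was lost without any 1 of the IF libraries (limma, adjusted p 0.0546 to 0.0702). Gk and Pcx showed no such difference in the same test with all livers.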

How the results depend on the processing

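Over 34 alternatives for each comparison, Gk kept its call or lack of one in all 3 comparisons, as did Aldoa in IF and in FMD against FED. Under the fold required, Gk in FMD against IF reached an adjusted p of 0.0415 with weights on the libraries and 0.0383 without FMD replicate 4 (limma). Aldoa in IF against FED likewise reached 0.00723 with 1 fit per pair of groups. Pcx in FMD against FED kept its call in 24 of the 34. It was no longer called with median-ratio scaling (0.55) or with the replicate block and that scaling (0.54), and stayed called with the other 3 scalings (0.62 to 0.71). With median-ratio scaling and 1 library left out, it was called in 1 of 9 fits. Aldoa in FMD against IF was no longer called with 1 fit per pair of groups (1.27, adjusted p = 0.069) or at an adjusted p under 0.01 (1.27). Leaving out 1 library gave log2 differences, first as deposited and then scaled, of 1.05 to 1.55 and 0.89 to 1.20 for Aldoa in FMD against IF. For Pcx they were 1.13 to 1.23 and 0.85 to 0.95 in IF against FED, 0.86 to 1.26 and 0.26 to 0.82 in FMD against FED, and -0.32 to 0.081 and -0.63 to -0.07 in FMD against IF. The cause of these changes was not tested. The numbers of genes called were 553, 1732 and 240 for IF against FED, FMD against FED and FMD against IF, and 333, 519 and 104 after scaling; with 1 fit per pair of groups the last was 24. Leaving out 1 library gave 18 (without IF replicate 2) to 819 (without FMD replicate 4) genes in FMD against IF as deposited, and 16 (without IF replicate 1) to 346 (without FMD replicate 4) after scaling. The replicate number was also fitted as a block, although a pairing by number was not tested. With it, Aldoa in FMD against IF was 1.52 (limma, adjusted p = 0.00129), Gk 0.42 (adjusted p = 0.058), and 772 genes were called in that comparison. No other call on the 3 genes changed but that of Pcx given above. Depth is unknown, and 3 livers a group limit the precision.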

Other observations

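Of 17 genes of glycogen metabolism, 7 were tested, and 1 was called higher in IF as deposited and none in FMD or after scaling. Of all genes, 10.3% were called higher in IF and 35.5% in FMD as deposited, and 3.69% and 5.49% scaled. The glycogen counts were therefore near or below the background. That gene was Pgm1, which links glucose 1-phosphate to glucose 6-phosphate, at 121 ± 8.49 TPM in FED livers, 203 ± 12.7 in IF livers and 177 ± 12.0 in FMD livers (SD, n = 3 each). Gbe1, Ugp2 and Phka2, the branching enzyme, the enzyme that makes UDP-glucose and a phosphorylase kinase subunit, were called in no comparison. Of 10 genes of biotin enzymes and biotin handling, 3 besides Pcx were tested. Slc5a6, the carrier that takes up biotin, was at 2.01 ± 0.10 TPM in FED livers, 3.51 ± 0.50 in IF livers and 6.11 ± 0.60 in FMD livers, and was called higher in FMD on both scales (log2 differences 1.24 and 0.82) and, as deposited, higher in FMD than in IF by 0.66 (adjusted p = 0.0196). Acaca, the acetyl-CoA carboxylase of fatty acid synthesis and also a biotin enzyme, was called lower in both diets after scaling (-0.62 and -0.63; in FMD not without FMD replicate 1) and in neither as deposited. Hlcs, which attaches biotin to these enzymes, was called in no comparison.

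Of the reference genes of the study's qPCR, Tbp averaged 5.56, 6.70 and 7.28 TPM in FED, IF and FMD as deposited, and Gtf2b 23.2, 23.3 and 31.7.

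The study's qPCR primers listed for Gyk, an older name of Gk, and those listed for G6pc are the same letters. Forward and reverse primer are shown because 1 pair stands under both names.
Forward: accctccatgcctgaaacaa
Reverse: accactttctggagactgagtt
Searched letter for letter in GENCODE vM21 transcripts, the pair matched 4 of 8 transcripts of Gk, with a product of 223 bases, and no transcript of G6pc. The pair listed for Pcx matched 3 of 7 Pcx transcripts, with a product of 132 bases, and no other gene. No qPCR values were used here.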
